A study of Mus musculus with 2 samples.

Results

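The Hox genes were examined in embryonic mouse skin as the 39 genes of the feature table whose symbol is Hox, a cluster letter from a to d and a paralogue number, out of 32285 genes in all. HoxA held 11 members, HoxB 10, HoxC 9 and HoxD 9. Their transcripts were counted by droplet-based 3′ single-cell RNA sequencing of dorsolateral and flank skin at E14.5. There were 2 libraries, 1 per genotype, and each pooled 2 to 3 littermate embryos. In the Wntless mutant library, K14Cre mice, whose Cre is driven by a keratin promoter of epidermal keratinocytes, had been bred to Wntless fl/fl mice. Wntless (Wls) is the carrier protein that Wnt ligands need for secretion. The control library is labelled wildtype, and the labels do not say whether those embryos carried Cre or a floxed allele. With 1 library per genotype, no test could be made and no p-value is given. Each interval below is at the 95% level and covers counting error only, and genotype, embryo pool and dissected area cannot be told apart.

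The wildtype library held 9065 barcodes with 112593376 UMIs (unique molecular identifiers, each standing for 1 captured transcript), and the mutant library held 10449 barcodes with 159841679 UMIs. The 39 members took 52247 and 61362 of these UMIs. The libraries shared 19 barcode sequences. Dermal cells, 5300 in the wildtype and 5028 in the mutant library, were taken from lists that the authors deposited. A cell of any other class needed a UMI of 4 or more of 6 markers, which left 477 and 158 epidermal, 332 and 360 muscle, 225 and 232 Schwann, 169 and 209 mural, 63 and 97 endothelial, and 254 and 315 macrophage cells. All 6 fibroblast markers and, within each other class, all 6 of its own markers were detected. Wls, the targeted gene, stood at 131 CPM (UMIs of the gene scaled to all UMIs of the class) in wildtype epidermal cells and 5.75 CPM in mutant ones, a log2 ratio of -4.51 (-5.16 to -3.93). In dermal cells it stood at 91.8 and 77.0 CPM.

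Hox genes encode homeodomain transcription factors that give cells their position along the head-to-tail axis. Within a cluster the genes lie in the order of their expression domains: low-numbered paralogues at one end are active far forward, and high-numbered ones at the other end are active in the lumbar, tail and distal limb regions. In skin, fibroblasts keep a Hox pattern that records their body site, and Hox proteins bind DNA together with TALE homeodomain cofactors of the Pbx and Meis families. Polycomb complexes keep inactive parts of the clusters silent, which in mammals goes with promoters rich in CpG dinucleotides.

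On GRCm38, HoxA lies on the minus strand of chromosome 6, HoxB on chromosome 11 (96194316 to 96368256), HoxC on chromosome 15 (102921103 to 103036852) and HoxD on chromosome 2 (74668310 to 74765142), the last 3 on the plus strand. The clusters span between 96.83 kb (HoxD) and 173.9 kb (HoxB). On the same strand, 166 exonic bases are shared by Hoxc5 and Hoxc10 and 388 by Hoxd3 and Hoxd4, so reads there could belong to either gene of the pair. RefSeq promoter sequences were found for 22 of the 39 members. Promoters were taken as the 250 bases before the start site. Over the 24 member promoters, the median CpG number was 12.5 and the median GC content 58.6%. Over a background of 32851 promoters, which left out a chromosome without a Hox cluster, these were 6 and 52.4%. The letters TGATNNAT, a site for Pbx with Hox, were found on either strand in 4 of the 24 and in 7.683% of the 32851. The letters CTTTGNA, a site for Lef and Tcf factors, were found in 5 of the 24 and in 15.71% of the 32851. A match describes the letters only.

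The promoters of 3 members on which the results below turn are shown with CpG dinucleotides in capitals (RefSeq, GRCm38.p6, 5′ to 3′ on the gene's own strand). They set a CpG-rich window beside windows whose CpG number equals the background median given above. Hoxa5, at chr6:52204588-52204837 on the minus strand, holds 28 CpG, while Hoxa2, at chr6:52164832-52165081 on the minus strand, and Hoxd8, at chr2:74704365-74704614 on the plus strand, hold 6 each.
Hoxa5: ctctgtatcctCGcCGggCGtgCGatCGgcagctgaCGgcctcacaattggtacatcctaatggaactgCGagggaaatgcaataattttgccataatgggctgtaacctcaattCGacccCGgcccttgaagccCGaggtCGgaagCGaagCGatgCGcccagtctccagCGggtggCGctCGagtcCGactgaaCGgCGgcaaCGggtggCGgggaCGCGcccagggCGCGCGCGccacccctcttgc
Hoxa2: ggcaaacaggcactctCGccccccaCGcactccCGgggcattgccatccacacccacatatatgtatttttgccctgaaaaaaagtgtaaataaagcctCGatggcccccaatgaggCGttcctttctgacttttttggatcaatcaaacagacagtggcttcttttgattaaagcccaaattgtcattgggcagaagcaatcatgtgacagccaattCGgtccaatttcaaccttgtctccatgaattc
Hoxd8: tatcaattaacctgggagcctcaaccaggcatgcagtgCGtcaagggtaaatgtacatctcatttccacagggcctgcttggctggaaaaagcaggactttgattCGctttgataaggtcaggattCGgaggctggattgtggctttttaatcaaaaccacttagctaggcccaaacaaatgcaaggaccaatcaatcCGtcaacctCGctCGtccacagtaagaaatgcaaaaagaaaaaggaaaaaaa
Hoxa2 holds 1 match to TGATNNAT, and the windows of Hoxa5 and Hoxd8 hold none to either set of letters.

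In the dermis, the Hox pattern was that of the trunk: HoxC genes of the middle paralogues led, and the most posterior paralogues were at or near 0 in both libraries. Hoxc8, which is known for patterning the thoracic region, was the highest member at 172 CPM (169 to 175) in wildtype and 160 CPM (157 to 163) in mutant cells. Hoxc6 stood at 57.1 and 62.6 CPM, Hoxc9 at 56.0 and 48.2 CPM, and Hoxd8 at 55.8 and 48.4 CPM. The wildtype intervals of these 3 overlapped, so their order was not resolved. Hoxc10, a gene of the lower trunk and hindlimb level, stood at 38.9 and 36.2 CPM, and Hoxb2, a low paralogue with a role in the hindbrain, at 35.2 and 33.9 CPM. Hoxc4 (29.0 and 28.0 CPM), Hoxc5 (24.1 and 18.3 CPM), Hoxa7 (19.3 and 15.4 CPM) and Hoxa9 (17.2 and 17.7 CPM) completed the 10 highest. Hoxd4, Hoxb9, Hoxb3, Hoxb4, Hoxb7, Hoxd3, Hoxa10, Hoxa2, Hoxb5 and Hoxb6 followed, from 15.2 CPM (Hoxd4) down to 1.54 CPM (Hoxb6) in wildtype cells, each less than 1.5-fold apart between the libraries. Hoxa6, with 10 and 11 UMIs, and Hoxc11, with 11 and 14, were near the lower end of what was measured. The counts come from 3′ ends and were not divided by gene length.

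Summed over the dermis, all members together stood at 590 CPM (584 to 597) in wildtype and 545 CPM (540 to 550) in mutant cells. HoxC gave 63.9% and 64.8% of these UMIs, HoxD 15.3% and 13.9%, HoxB 13.2% and 13.7%, and HoxA 7.65% and 7.57%. By paralogue, numbers 4 to 8 held 66.8% and 67.6%, numbers 9 to 13 held 23.6% and 22.7%, and numbers 1 to 3 held 9.55% and 9.69%. Hoxa11, Hoxa13 and Hoxc12 had no UMI in either library. At the ends of the clusters, Hoxb1 had 1 and 4 UMIs, Hoxb13 3 and 3, Hoxc13 3 and 0, Hoxd13 2 and 6, and Hoxd12 0 and 2. Hoxd1, the lowest paralogue of its cluster, had 195 and 143.

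**Figure D1:**
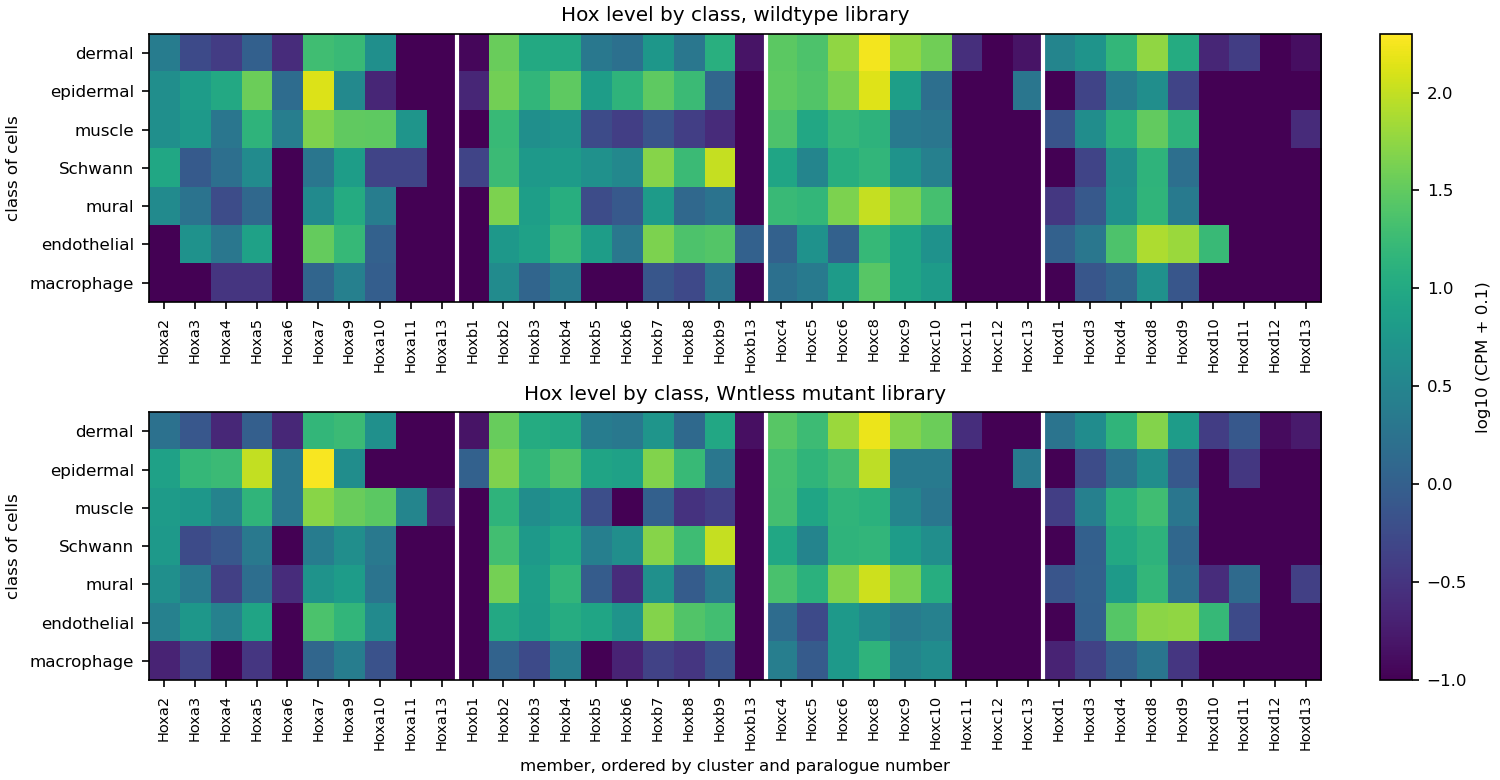
Colour gives log10 of CPM plus 0.1 for the members shown (columns, by cluster and paralogue number) in 7 classes of cells (rows), for the wildtype library above and the Wntless mutant library below. Hoxc8 is the brightest column of the dermal row in both panels, and the columns of Hoxa13 and Hoxc12 are at the bottom of the scale in nearly every class.

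Between the libraries, most dermal members differed by less than 1.5-fold. With 20 or more UMIs over both libraries, 31 members counted as measured, and the other 8 (Hoxa11, Hoxa13, Hoxb1, Hoxb13, Hoxc12, Hoxc13, Hoxd12 and Hoxd13) did not reach that minimum. Of the 31, 3 were at least 1.5-fold higher in the mutant library, 4 were at least 1.5-fold lower and 24 lay between. Over all 15609 genes measured in the dermis, 10.9% were at least 1.5-fold higher and 5.64% at least 1.5-fold lower, 16.5% in either direction. The members' median log2 ratio, mutant over wildtype, was -0.09, against 0.03 over all genes.

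Among the lower members, Hoxd9 had 671 wildtype and 527 mutant UMIs, 10.7 CPM (9.88 to 11.5) and 6.49 CPM (5.95 to 7.07), a log2 ratio of -0.72 (-0.88 to -0.55). Hoxd1 stood at 3.10 and 1.76 CPM (log2 -0.82, -1.14 to -0.50) and Hoxb8 at 1.92 and 1.23 CPM (-0.64, -1.04 to -0.25). Hoxa4 rested on 18 and 11 UMIs, and the interval of its log2 ratio of -1.08 (-2.31 to 0.08) included 0. The higher members were all low genes. Hoxa3 had 28 and 56 UMIs (log2 0.63, -0.05 to 1.34), Hoxd10 8 and 24 (1.22, 0.01 to 2.58) and Hoxd11 19 and 57 (1.22, 0.45 to 2.05). Hoxc8, with 10816 and 12968 UMIs, had a log2 ratio of -0.11 (-0.14 to -0.07).

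**Figure D2:**
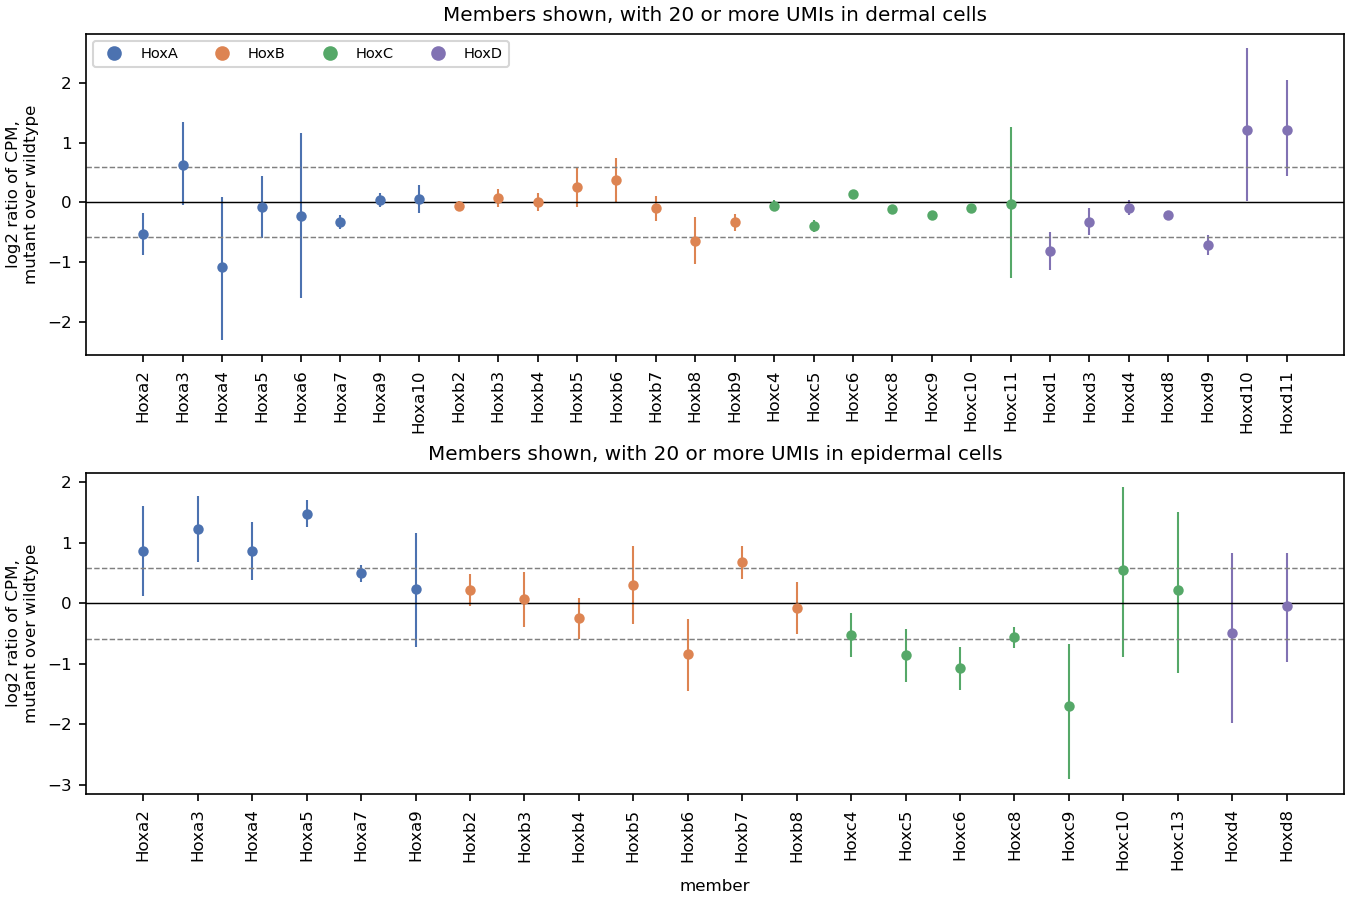
Points give the log2 ratio of CPM, mutant over wildtype, for the members shown, each with 20 or more UMIs over both libraries, in dermal cells (above) and epidermal cells (below), coloured by cluster. Bars are exact 95% intervals for counting error and dashed lines mark 1.5-fold. In the dermal panel the precise HoxC points lie close to 0, and in the epidermal panel Hoxa2 to Hoxa5 lie above the upper line and Hoxc5, Hoxc6 and Hoxc9 below the lower one.

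The number of dermal cells with active Wnt targets differed between the libraries, and Hox levels differed between these cells and the rest. After each cell was thinned to 8000 UMIs, 1603 of 4509 wildtype cells but 348 of 4773 mutant cells had a UMI of 3 or more of 8 Wnt targets (Lef1, Axin2, Dkk1, Notum, Nkd1, Sp5, Tcf7 and Wif1). Within the wildtype library, Hoxa7 was higher in these cells than in the other dermal cells by a log2 ratio of 1.44 (1.22 to 1.65), Hoxd9 by 1.08 (0.78 to 1.38), Hoxd3 by 1.08 (0.65 to 1.52), Hoxa9 by 0.86 (0.63 to 1.09) and Hoxd8 by 0.78 (0.65 to 0.91). Within the mutant library, Hoxd9 was higher by 1.05 (0.48 to 1.58), Hoxa7 by 0.81 (0.43 to 1.17) and Hoxd8 by 0.64 (0.42 to 0.85). Hoxa9, at 0.31 (-0.09 to 0.69), and Hoxd3, at 0.65 (-0.20 to 1.40), had intervals that included 0 there. Hoxb2 did not differ beyond counting error in either library, at -0.02 (-0.19 to 0.15) and 0.02 (-0.29 to 0.31). With Wnt-active cells left out of the thinned cells, a setting chosen after seeing the data, the mutant over wildtype ratio of Hoxd9 was -0.33 (-0.63 to -0.03) in place of -0.72. With such cells left out at full depth, where deeper cells meet the gate more readily, 2912 wildtype and 3934 mutant cells remained and the ratio was -0.07 (-0.32 to 0.19). At full depth the number of lower members was then 2 and of higher members 3, of 28 measured, beside 3.55% and 8.26% of 15005 genes. Hoxd1, at -0.79, and Hoxb8, at -0.60, were little different. The median over members was 0.03 (0.02 in thinned cells) in place of -0.09, and summed HoxA was 0.31 (0.26 in thinned cells) in place of -0.13. Several members that had been lower by less than 1.5-fold then lay at or above 0: Hoxa7 was at 0.20 in place of -0.33, Hoxd8 at 0.03 in place of -0.21 and Hoxc10 at 0.02 (-0.04 in thinned cells) in place of -0.10. Hoxa9 was at 0.51 in place of 0.04. Summed HoxC was at 0.01 and summed HoxD at 0.03, in place of -0.10 and -0.25.

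Single dermal cells usually held UMIs of several members. After thinning, 96.2% of 4509 wildtype and 95.6% of 4773 mutant dermal cells had a UMI of at least 1 member, against 17.9% of 240 and 11.4% of 306 macrophages, which serve here as the background of free RNA. The full median depth was 11154 and 15566 UMIs in dermal cells and 16262.5 and 25527 in macrophages. Without thinning, the dermal shares were 97.1% and 98.0%. Hoxc8 was detected in 60.7% (59.3 to 62.2, Clopper-Pearson) of wildtype and 57.7% (56.3 to 59.1) of mutant dermal cells, beside 8.75% and 5.56% of macrophages. Hoxc6 was detected in 35.0% and 37.4%, Hoxd8 in 33.3% and 30.3%, Hoxc9 in 31.3% and 27.3%, Hoxb2 in 22.3% and 22.8%, and Hoxc10 in 19.2% and 17.8%. The median dermal cell held UMIs of 3 members in both libraries. The highest paralogue number detected was 8 in 34.6% of wildtype and 37.1% of mutant cells, 9 in 32.7% and 27.3%, 10 in 20.0% and 18.5%, and 11 to 13 in 0.42% and 0.88%.

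Paralogue groups were not spread evenly over dermal cells. Cells with a Hoxc10 UMI, 867 wildtype and 848 mutant cells after thinning, held more Hoxa9, Hoxa10, Hoxb9 and Hoxc9 and less Hoxc4, Hoxc5 and Hoxc8 than cells without one in both libraries. Hoxa10, the paralogue of Hoxc10 in another cluster, had 127 UMIs per 1000 wildtype cells with a Hoxc10 UMI and 12.4 per 1000 cells without, a log2 ratio of 3.36 (2.85 to 3.89). In the mutant library the log2 ratio was 3.45 (2.96 to 3.95). Hoxa9 was higher by 1.92 and 2.23, Hoxb9 by 1.33 and 1.34 and Hoxc9 by 0.79 and 1.05 in the wildtype and mutant libraries. On the other side, Hoxc5 stood at -1.66 and -1.44, Hoxc4 at -1.22 and -1.13, Hoxc8 at -0.82 and -0.58, and Hoxa7 at -0.59 and -0.49. Hoxb2, a low paralogue, was at -0.10 (-0.31 to 0.11) and 0.09 (-0.11 to 0.29). Some members did not follow their paralogue number. Hoxd9 was at -0.44 (-0.88 to -0.03) in wildtype and 0.30 (-0.18 to 0.75) in mutant cells, and none of 38 mutant Hoxd11 UMIs lay in a cell with a Hoxc10 UMI. Hoxc6 was at -0.05 (-0.21 to 0.12) and 0.20 (0.05 to 0.35). Hoxc10, Hoxa10 and Hoxb9 lie on different chromosomes and share no exons.

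Genes of skin position outside the clusters differed among themselves in the split by Hoxc10. En1, a homeobox gene of trunk dermis and ventral ectoderm, was at 0.05 (-0.11 to 0.21) in wildtype and 0.12 (-0.03 to 0.27) in mutant cells. Tbx3, a T-box gene of limb and mammary regions, was lower in cells with a Hoxc10 UMI in both libraries, at -1.81 (-2.59 to -1.12) and -1.04 (-1.56 to -0.55). Emx2 was higher in such cells in both libraries, at 0.28 (0.05 to 0.49) and 0.37 (0.18 to 0.55). Alx4 was at -0.07 (-0.69 to 0.51) and 0.71 (0.31 to 1.10), and Tbx18 at 0.13 (-0.06 to 0.31) and 0.57 (0.35 to 0.78). The dermis was also split by Hoxc4. In the 806 wildtype and 865 mutant cells with a Hoxc4 UMI, Hoxc5 was higher by 1.18 and 1.12, Hoxb5 by 0.97 and 1.76 and Hoxb4 by 0.68 and 0.83, while Hoxc9 was at -0.50 and -0.76 and Hoxc10 at -0.97 and -1.01. Hoxb9 was at -0.76 (-1.23 to -0.32) and 0.18 (-0.23 to 0.56), Hoxa9 at -0.57 (-0.93 to -0.23) and -0.04 (-0.34 to 0.24), and Hoxa7 at 0.49 (0.23 to 0.74) and -0.10 (-0.42 to 0.22), so for these 3 the interval included 0 in the mutant library. These splits share their cells and their depth of 8000 UMIs and are a description of which transcripts were detected together.

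**Figure D3:**
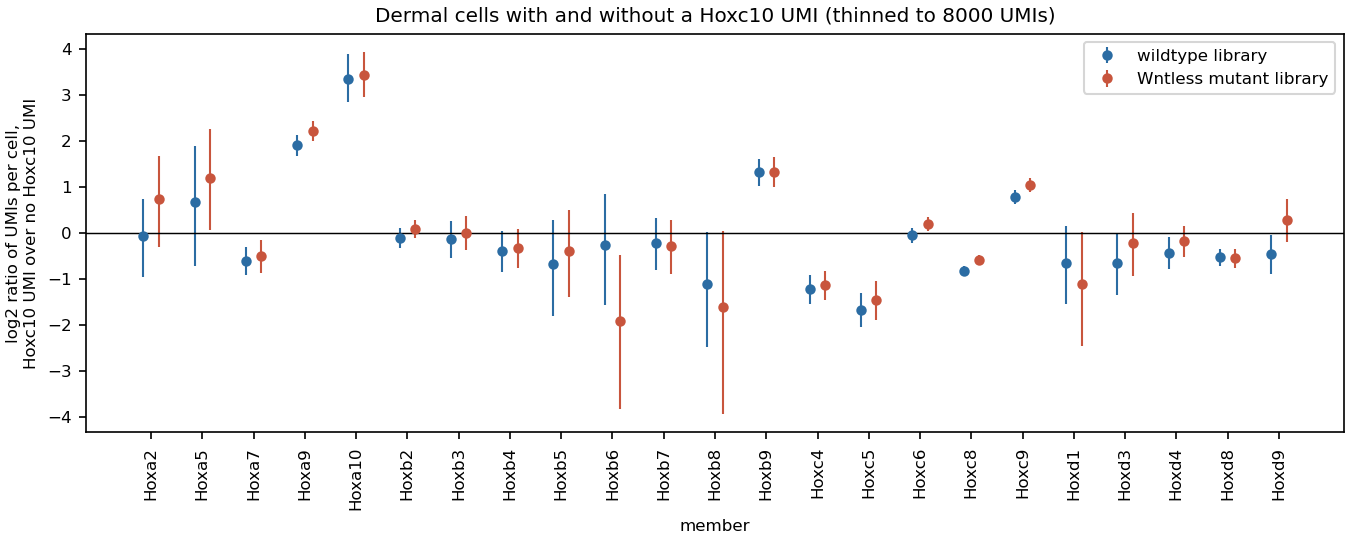
Points give the log2 ratio of UMIs per cell between dermal cells with and without a Hoxc10 UMI, after thinning to 8000 UMIs, for members with enough UMIs in both libraries. Bars are exact 95% intervals for counting error, blue for wildtype and red for mutant. Hoxa10 lies above 3 in both libraries, Hoxa9, Hoxb9 and Hoxc9 above 0, and Hoxc4, Hoxc5 and Hoxc8 below 0.

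The 5′ HoxD genes, Hoxd10 to Hoxd13, pattern the limb and the posterior end of the body and were confined to few dermal cells. At full depth, 26 wildtype and 59 mutant dermal cells held a UMI of any of the 4. Hoxc10 was detected in 2 of the 26 (7.69%) and 1 of the 59 (1.69%), beside 23.2% and 24.1% of the remaining dermal cells. Hoxa10 went the other way, at 2 (7.69%) and 10 (16.9%), beside 3.55% and 4.15%. Lmx1b, a gene of dorsal limb mesenchyme, was detected in 5 of the 26 (19.2%) and 12 of the 59 (20.3%), beside 0.171% and 0.604% of the rest. Tbx5, a gene of the forelimb and the body wall at its level, was detected in 3 (11.5%) and 26 (44.1%) of these cells, beside 4.63% and 6.30%. Pitx1 and Tbx4 were detected in none of these cells in either library. They were rare in the remaining dermal cells too, at 0.721% and 1.03% for Pitx1 and 0.114% and 0.161% for Tbx4. Hoxc8 was detected in 16 (61.5%) and 19 (32.2%), beside 67.8% and 72.2%. Lmx1b had 14 wildtype and 50 mutant UMIs over the whole dermis, a log2 ratio of 1.47 (0.59 to 2.44). Over the whole dermis Tbx5, at 0.26 (0.03 to 0.49), and Pitx1, at -0.14 (-0.70 to 0.42), were less than 1.5-fold apart, and Tbx4 had 6 and 8 UMIs. Other position genes were past 1.5-fold in the dermis in both directions and are counted below. The part of limb cells in the difference of Hoxd10 and Hoxd11 between the libraries was not tested.

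The epidermis carried a Hox level as high as the dermis but with another pattern: HoxA took a large part, HoxD was nearly absent, and genes above paralogue 8 were close to 0. All members together stood at 609 CPM (592 to 627) in wildtype and 683 CPM (658 to 708) in mutant epidermal cells. The 8 highest wildtype members were Hoxc8 (139 CPM, 131 to 147), Hoxa7 (133 CPM, 125 to 141), Hoxc6 (43.3), Hoxb2 (39.6), Hoxa5 (35.8), Hoxb4 (30.4), Hoxc4 (30.0) and Hoxb7 (29.9 CPM). The intervals of Hoxc8 and Hoxa7 overlapped. Paralogues 4 to 8 held 85.7% and 83.1% of epidermal Hox UMIs, and 9 to 13 held 2.53% and 1.96%. HoxD gave 1.2% and 1.05%, with Hoxd8 highest at 34 and 17 UMIs. Below the leading members, Hoxb8, Hoxb3, Hoxb5, Hoxa9, Hoxd4 and Hoxc10 lay between 17.4 CPM (Hoxb8) and 1.48 CPM (Hoxc10) in wildtype cells, and none was past 1.5-fold in the mutant. Hoxc13, the most posterior HoxC gene and a regulator of hair keratins, had 15 UMIs in 14 wildtype and 9 UMIs in 8 mutant epidermal cells. It had 3 and 0 in the much larger dermal class.

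Free RNA of fibroblasts could reach epidermal droplets, and the collagens Col1a1, Col1a2 and Col3a1 stood at 8.11% and 5.91% of their dermal level there. The 6 fibroblast markers summed to 1063 and 1059 CPM in epidermal cells, all 6 detected, against 13163 and 18322 CPM in dermal cells. If Hox RNA had been carried over in the same proportion, the wildtype epidermis would hold 3.15 CPM of Hoxc10, 4.54 CPM of Hoxc9 and 4.52 CPM of Hoxd8. The measured levels were 1.48, 7.04 and 4.20 CPM. Hoxc10 and Hoxd8 were thus not above the carry-over value, while Hoxc9, with an interval of 5.33 to 9.11 CPM, lay somewhat above it. Hoxc8, at 139 CPM against 13.9 CPM, Hoxa7, at 133 against 1.57 CPM, and Hoxa5, at 35.8 against 0.0761 CPM, were far above it. Macrophages, with 12.7% and 7.95% of the dermal Hox level, held 13.8% and 6.74% of the dermal collagen level.

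Between the libraries, epidermal HoxA genes were higher and HoxC genes lower in the mutant. Summed HoxA stood at 200 CPM in wildtype and 349 CPM in mutant cells, a log2 ratio of 0.80 (0.70 to 0.91), with a share of 32.8% and 51.2% of Hox UMIs. Summed HoxC stood at 248 and 156 CPM, a log2 ratio of -0.67 (-0.80 to -0.54), with a share of 40.8% and 22.9%. Summed HoxB differed little, at 154 and 170 CPM (log2 0.15, 0.01 to 0.28). Summed HoxD stood at 7.28 and 7.19 CPM on 59 and 30 UMIs. Its log2 ratio was -0.02 (-0.70 to 0.64), or 0.09 under median-of-ratios scaling, and the interval reached past 1.5-fold in both directions. Of 23 measured members, 6 were at least 1.5-fold higher, 4 at least 1.5-fold lower and 13 between. Over all 11398 genes measured in the epidermis, 7.48% were that much higher and 15.5% that much lower, 23.0% in either direction. The members' median was 0.22, against -0.11 over all genes. When cells were thinned to equal depth it was -0.07, against -0.13 over all genes. There 6 members were higher and 6 lower, and the share over all genes was not computed at that depth. The other 16 members had fewer than 20 UMIs, and 9 of these had none in either library.

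The higher members included Hoxa2 to Hoxa5 and Hoxb7. Hoxa5, which is known for its roles in the lung and the cervical and thoracic skeleton, had 290 wildtype and 417 mutant UMIs, 35.8 CPM (31.8 to 40.2) and 99.9 CPM (90.5 to 110), a log2 ratio of 1.48 (1.26 to 1.70). Hoxa3 stood at 6.66 and 15.6 CPM (log2 1.22, 0.68 to 1.77), Hoxa2 at 4.20 and 7.67 CPM (0.87, 0.13 to 1.61) and Hoxa4 at 9.75 and 17.7 CPM (0.86, 0.39 to 1.34). Hoxa2, with 6 CpG in the window shown above, and Hoxa5, with 28, thus lay on the same side. Hoxb7 stood at 29.9 and 47.7 CPM (0.67, 0.40 to 0.95). Hoxa7, the highest HoxA gene, stood at 133 and 187 CPM and fell short of 1.5-fold (0.49, 0.36 to 0.63). In the dermis Hoxa5 was at 0.938 and 0.887 CPM.

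The lower members were Hoxc6 at 43.3 and 20.6 CPM (log2 -1.07, -1.43 to -0.73), Hoxc5 at 25.5 and 14.1 CPM (-0.85, -1.30 to -0.43), Hoxb6 at 13.7 and 7.67 CPM (-0.84, -1.45 to -0.26) and Hoxc9 at 7.04 and 2.16 CPM (-1.71, -2.91 to -0.68). Hoxc9, with 57 and 9 UMIs, stood at 1.55 times the carry-over level in wildtype and 0.756 times in mutant cells. Hoxc8 (139 and 94.2 CPM, -0.56) and Hoxc4 (30.0 and 20.8 CPM, -0.52) were lower by less than 1.5-fold. In thinned cells, Hoxa5 was detected in 20.1% (16.5 to 24.1) of 457 wildtype and 53.2% (45.0 to 61.3) of 154 mutant cells, and Hoxc6 in 25.4% and 13.6%. Without thinning the shares of Hoxa5 were 32.9% and 81.0%, at median depths of 15272 and 23756 UMIs. No thinned macrophage of 240 and 306 held a Hoxa5 UMI, which allows a share of up to 1.25% and 0.98%.

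The wildtype epidermis contained hair placode cells, and the mutant nearly none, so placode cells were compared with the rest. With a UMI of 3 or more of 8 placode genes (Dkk4, Shh, Fgf20, Bmp2, Edar, Lhx2, Wnt10b and Sostdc1), 214 wildtype cells counted as placode cells and 263 did not. In the mutant library the numbers were 2 and 156. Within the wildtype library, summed HoxA was lower in placode cells, at 146 CPM against 241 CPM (log2 -0.73, -0.88 to -0.58). The 23 wildtype cells with no placode gene at all stood at 148 CPM (110 to 195), however, a level like that of the placode cells. Summed HoxC was higher in placode cells, at 311 against 201 CPM (0.63, 0.51 to 0.76). Hoxa5 (-1.38), Hoxa3 (-1.25) and Hoxa4 (-0.96) were lower in placode cells, and Hoxc5 (1.05), Hoxc6 (1.0), Hoxb4 (0.79) and Hoxc4 (0.73) higher. Summed HoxB was equal within counting error, at 0.01 (-0.16 to 0.17).

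With placode cells left out of both libraries, HoxA stayed higher and HoxC lower in the mutant. Summed HoxA stood at 241 CPM (227 to 256) in wildtype and 352 CPM (334 to 371) in mutant cells, a log2 ratio of 0.55 in place of 0.80. Summed HoxC stood at 201 CPM (188 to 214) and 154 CPM (142 to 167), a log2 ratio of -0.38 in place of -0.67. Hoxa5 was at 1.05, Hoxa3 at 0.84, Hoxc6 at -0.65 and Hoxc9 at -1.97. Hoxb4 was at 0.14 in place of -0.24. Of 21 members then measured, 3 were at least 1.5-fold higher and 2 lower, beside 6.58% and 11.1% of 10691 genes. When placode cells were gated and left out after thinning, a setting chosen after seeing the data, summed HoxA was at 0.66 (0.47 to 0.84) and summed HoxC at -0.53 (-0.78 to -0.29). Cells with no placode gene at all were few, 23 wildtype and 20 mutant cells. In these, summed HoxA stood at 148 CPM (110 to 195) and 235 CPM (188 to 289), a log2 ratio of 0.67. Summed HoxC stood at 148 CPM (110 to 195) and 93.4 CPM (65.1 to 130), a log2 ratio of -0.66 on 50 and 35 UMIs. For both clusters the intervals of the libraries overlapped. Such overlap is not an interval of the ratio, and with so few cells the size of these differences was not resolved.

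**Figure D4:**
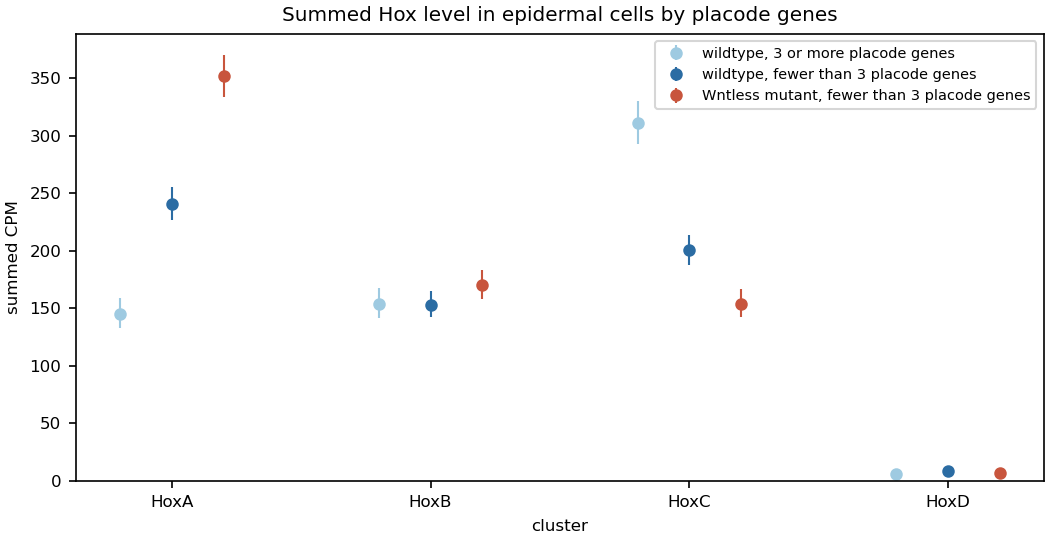
Points give the summed CPM of each cluster in wildtype epidermal cells with 3 or more placode genes, wildtype epidermal cells with fewer, and mutant epidermal cells with fewer; bars are exact 95% intervals for counting error. HoxA is lowest and HoxC highest in the first kind of cells, and HoxA is highest and HoxC lowest in the third, while the HoxB points lie between 153 and 171 CPM.

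Each of the other classes had a cluster that led its Hox UMIs in both libraries. In muscle cells this was HoxA, with 47.5% and 55.2%. Hoxa7 stood at 46.1 and 52.0 CPM, Hoxa9 at 31.0 and 35.5 CPM and Hoxa10 at 30.5 and 29.5 CPM, the last 7.13 and 6.63 times its dermal level. Hoxa11, a gene of the limb zeugopod that had no dermal UMI, had 33 UMIs in 32 wildtype and 30 UMIs in 27 mutant muscle cells. Of 22 members measured in muscle, 1 was at least 1.5-fold higher and 4 lower in the mutant, beside 4.77% and 5.51% of 11572 genes, 10.3% in either direction. Hoxd9 had 86 wildtype and 18 mutant UMIs, 13.4 CPM (10.7 to 16.5) and 1.85 CPM (1.10 to 2.92), a log2 ratio of -2.86 (-3.68 to -2.11). Its neighbour Hoxd8 stood at 32.2 and 19.4 CPM (-0.73, -1.02 to -0.44). Muscle collagen was 10.6% and 7.81% of the dermal level, which would carry over 1.13 and 0.507 CPM of Hoxd9.

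Schwann cells, the glia of skin nerves, were a HoxB class, with 69.8% and 69.1% of Hox UMIs. Hoxb9 stood at 103 CPM (91.1 to 116) and 101 CPM (92.2 to 111), or 8.67 and 10.8 times its dermal level, Hoxb7 at 50.7 and 49.8 CPM and Hoxb8 at 17.8 and 18.8 CPM. Hoxc8 stood at 14.8 and 14.6 CPM, below what collagen carry-over would give (0.408 and 0.425 of it). Of 18 members measured, 2 were at least 1.5-fold higher and 3 lower, beside 8.07% and 4.34% of 10927 genes. The only 1 of these whose interval excluded 0 was Hoxd4, with 11 and 42 UMIs (1.22, 0.24 to 2.33), and its exons overlap those of Hoxd3.

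Mural cells, the pericytes and smooth muscle around vessels, had a pattern close to that of the dermis, with HoxC at 67.2% and 67.8%. Hoxc8 stood at 102 and 112 CPM, Hoxc6 at 44.8 and 47.3 CPM, Hoxb2 at 44.5 and 40.6 CPM and Hoxc9 at 44.1 and 43.6 CPM. Collagen was high in these cells, 28.3% and 24.5% of the dermal level. Hoxc8 stood at 2.10 and 2.86 times the level that carry-over in that proportion would give. Whether this collagen was carried over or made by the mural cells was not tested. None of 18 measured members was 1.5-fold higher and 2 were lower, beside 8.96% and 3.04% of 11260 genes: Hoxc10 at 21.2 and 11.4 CPM (-0.90, -1.37 to -0.43) and Hoxa9 at 10.7 and 6.57 CPM (-0.70, -1.35 to -0.06).

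Endothelial cells gave the most HoxD, 44.1% and 42.2% of their Hox UMIs, followed by HoxB with 31.7% and 36.7%. Hoxd8 stood at 78.2 CPM (62.2 to 97.1) and 53.6 CPM (44.3 to 64.2), Hoxd9 at 63.9 and 56.8 CPM and Hoxb7 at 43.9 and 48.1 CPM. Hoxd10, with 0.127 and 0.296 CPM in the dermis, stood at 17.2 and 16.0 CPM on 18 and 35 UMIs. Of 15 members measured, 1 was at least 1.5-fold higher and 2 lower, beside 9.86% and 8.50% of 9019 genes. Hoxc8, with 17 and 8 UMIs, had a log2 ratio of -2.15 (-3.57 to -0.86), while endothelial collagen stood at 18.2% of the dermal level in wildtype and 3.84% in mutant cells. In both libraries Hoxc8 was below the level that carry-over in that proportion would give (0.516 and 0.596 of it).

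Macrophages, which arise outside the skin, held 340 and 380 Hox UMIs, 75 CPM (67.3 to 83.5) and 43.3 CPM (39.1 to 47.9). HoxC gave 70.6% and 69.2%, close to its dermal share, and Hoxc8 stood at 1.17 and 1.28 times the carry-over level. Of 9 members measured, 1 was at least 1.5-fold higher and 5 lower, beside 4.18% and 8.41% of 11424 genes, and the sum had a log2 ratio of -0.79 (-1.01 to -0.58). The collagen level in macrophages also differed between the libraries, at 1560 and 1106 CPM.

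**Figure D5:**
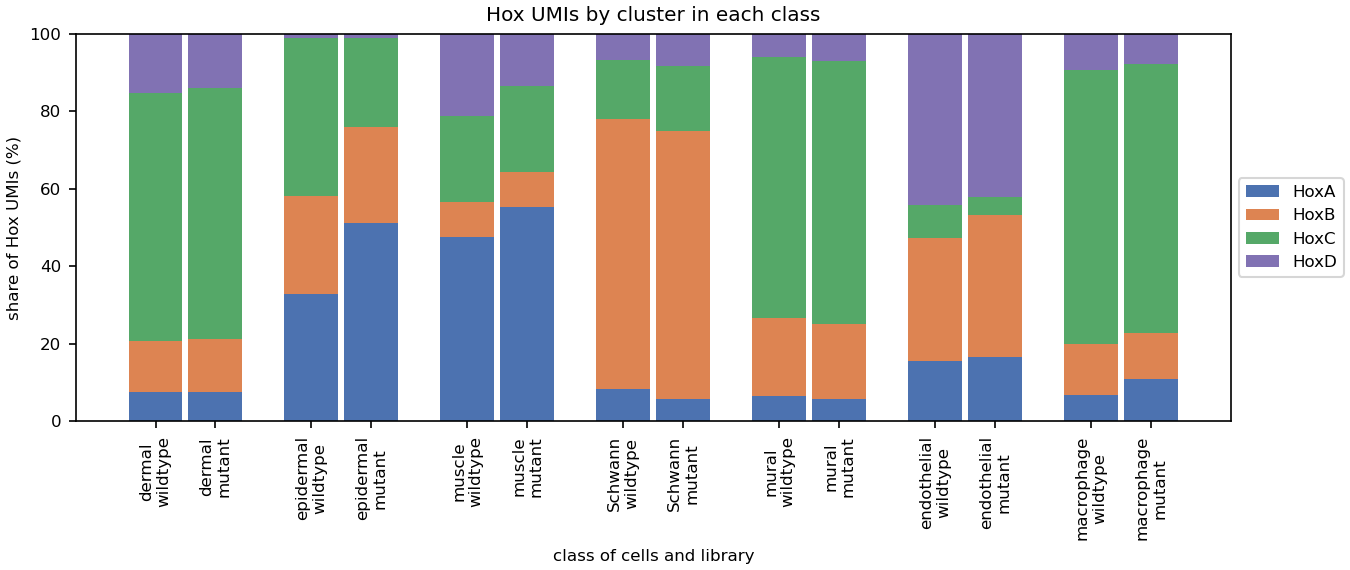
Stacked bars give the share of Hox UMIs from each cluster, in percent, for 7 classes of cells in the wildtype and the mutant library. HoxC leads in dermal, mural and macrophage cells, HoxA in muscle, HoxB in Schwann and HoxD in endothelial cells in both libraries, and in the epidermis HoxC leads in wildtype and HoxA in mutant cells.

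Genes that work with or on the Hox clusters were read as whole lists. Their counts stand beside the shares of all genes given above, 10.9% at least 1.5-fold higher and 5.64% lower in the dermis, and 7.48% higher and 15.5% lower in the epidermis. Among the TALE cofactors, 8 were measured in the dermis, with none 1.5-fold higher and 1 lower (Pbx4, 58 and 42 UMIs, log2 -0.83), and a median of 0.08. Meis2 stood at 144 and 174 CPM and Meis1 at 57.7 and 76.2 CPM. In the epidermis 7 were measured, with Meis2 higher, at 79.7 and 143 CPM (0.84, 0.68 to 1.0), and Meis1 lower, at 20.1 and 9.34 CPM (-1.11, -1.65 to -0.59), and a median of -0.02. Of the upstream regulators of Hox domains, which include retinoic acid genes, 6 were measured in the dermis. Aldh1a2, an enzyme of retinoic acid synthesis, was higher, at 1.24 and 2.59 CPM (1.06, 0.68 to 1.45), and Cyp26b1, an enzyme that degrades it, lower, at 20.7 and 9.99 CPM (-1.05, -1.18 to -0.92), with a list median of -0.08. In the epidermis 5 were measured, with 1 higher and 3 lower, among them the receptor gene Rara at 19.1 and 7.43 CPM (-1.36, -1.97 to -0.80). Gdf11 (18 and 6 UMIs) and Cyp26b1 (16 and 4 UMIs) were also lower, with intervals that included 0. The higher gene, Rarb, had 10 and 15 UMIs. The list's median of -0.63 was the ratio of Gdf11.

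Polycomb genes were close to even: 1 of 12 measured was past 1.5-fold in the dermis (Cbx7, on 12 and 10 UMIs), and none of 11 in the epidermis, although Ezh2, the main histone methyltransferase of the group, was near that bound there at 148 and 99.7 CPM (-0.57, -0.74 to -0.41). The medians were -0.06 and -0.01. Trithorax genes, which counter Polycomb, had none of 7 past 1.5-fold in the dermis, with a median of -0.11. In the epidermis 4 of 7 were lower and none higher: Kdm6b (42.3 and 21.3 CPM, -0.99), Kdm6a (22.6 and 13.7 CPM, -0.73), Kmt2a (59.4 and 37.1 CPM, -0.68) and Men1 (15.7 and 9.82 CPM, -0.67). The list's median was -0.67, against -0.11 over all epidermal genes. Of the noncoding RNAs of the clusters, none of 6 was past 1.5-fold in the dermis, and in the epidermis 4 of 7 were higher and 1 lower, with a median of 0.91. Hotairm1, which lies at the anterior end of HoxA, stood at 76.3 and 253 CPM (1.73, 1.59 to 1.88) and Hoxb3os at 21.6 and 12.9 CPM (-0.74, -1.21 to -0.29). Of the position genes, 11 were measured in the dermis, with 2 higher (Alx4, 4.64 and 7.33 CPM, and Lmx1b) and 3 lower, of which Tbx18 (39.9 and 26.1 CPM, -0.61) had more than 30 UMIs, and a median of 0.24. In the epidermis 5 were measured, with 1 higher (Emx2, 24 and 19 UMIs) and 1 lower (Tbx18, 28 and 9 UMIs), and a median of 0.16.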

How the data were processed

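Counts of UMIs per gene and cell were deposited by the authors for 1 library per genotype, as written by Cell Ranger (6.1.2, per the file headers). The submitters' processing notes name mm10 and Seurat. The authors also deposited lists of dermal barcodes. How those cells were chosen is not given in the sources used here. The other deposited files hold gene and barcode names.

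UMIs were summed over the cells of each class and divided by the class total (CPM), with exact Poisson intervals. Ratios carry exact conditional binomial intervals, and shares of cells Clopper-Pearson intervals. A gene needed 20 UMIs over both libraries, and 1.5-fold was the bound. Other settings appear in the closing section. A class cell had a UMI of 4 or more of 6 markers, and cells that met 2 gates or were on a dermal list were left out. No doublet caller was run. A setting kept cells of at most 2 times the median UMIs. For shares, cells were thinned to 8000 UMIs with a fixed seed, which left out 791 wildtype and 255 mutant dermal cells, 20 and 4 epidermal cells and 14 and 9 macrophages. A share of 0 was bounded by 3 cells of the total. Named members were the 10 highest in wildtype dermis and 8 in epidermis, the highest of each cluster, the cluster ends and all past 1.5-fold, with list genes of 100 or more UMIs past 1.5-fold; other list genes were named after their values were seen. Values of some single genes are not reported here. The members and lists were chosen with earlier results of these data known. The computation was tested on simulated counts. Coordinates are from GENCODE M21, which held 32235 of 32285 gene identifiers. Python 3.11.15, numpy 2.4.6, pandas 2.3.3 and scipy 1.17.1 were used.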

Additional observations from a re-analysis of the deposited data

How the results depend on the processing

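No paired analysis was possible because each genotype had 1 library and no result came from a test, and for the same reason no replicate could be left out. Dermal members 1.5-fold lower numbered 4, but 2 with Wnt-active cells left out, at full depth or thinned. At a bound of 2-fold 1 was left, Hoxa4, whose interval included 0. Shares over all genes were not computed at 2-fold, in thinned cells or in cells with no placode gene. The counts of members at those settings therefore have none beside them. Epidermal members numbered 6 higher and 4 lower, but 3 and 2 at 2-fold, 3 and 2 with placode cells left out, and 1 and 1 of 5 measured when cells with any placode gene were left out, a setting chosen after seeing the data that kept 23 wildtype and 20 mutant cells. In those cells Hoxb7 was at -0.36 in place of 0.67, the only named member past 1.5-fold to change sign under any alternative. With Wnt-active cells left out, Hoxa7, Hoxc4, Hoxc10 and Hoxd8 of the dermis, all under 1.5-fold, also changed sign (0.20, 0.08, 0.02 and 0.03). Summed epidermal HoxB was at -0.36 in place of 0.15 in those cells. Scaling by the median of ratios moved the epidermal median of all genes from -0.11 to -0.00 and raised every epidermal ratio alike. The epidermal median of members was 0.22 and between -0.07 (thinned cells) and 0.32 (median of ratios). The summed macrophage ratio was -0.79, but -1.36 with cells of 2 gates kept; that of the other 4 classes moved less than its interval under the 4 alternatives run. Shares of dermal cells depended on depth. Any member was detected in 90.2% of wildtype and 87.7% of mutant cells at 5000 UMIs and in 97.1% and 98.0% without thinning. Hoxc8 was detected in 46.7% and 46.0% at 5000 UMIs and in 67.8% and 71.8% without thinning. Depth limits members under 20 UMIs, for which no ratio is given. The sums by cluster and the settings that joined thinning with a gate were added after seeing the data. Where no construction of the setting shows it, the cause was not tested.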
